A study of Mus musculus with 2 samples.

Results

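The promoter regions of long noncoding RNA (lncRNA) genes were described in mouse T cells profiled by ATAC-seq, which marks DNA that a transposase can reach. Peaks of both libraries on chromosomes 1 to 19 were merged where they overlapped. A merged region was kept if both libraries had a peak in it, if its strongest summit lay within 1000 bp of an annotated start of a lncRNA gene, and if that summit was over 1000 bp from every protein-coding start. This gave 1365 regions, which is 2.09% of the 65318 regions present in both libraries. Among regions called in both libraries, the signal of a peak chose only which summit stood for a region. Sequence and position beyond 1000 bp were free to vary. Regions too weak to be called in both libraries dropped out, so signal and width could vary only among regions that were called.

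The 2 libraries were replicates 1 and 2 of 1 group of primary T cells from strain C57BL/6NJ, with no second condition. Sex, age and stage were not given, and both replicates carry 1 donor record, so the spread between them may be technical. The labels name no T-cell subset, although they link to a procedure for CD4+ cells. The peak names carry the words Th0 and ASTARR.insert and a time in hours, none of which a label explains. The T-cell subset, the meaning of that time and the kind of library beyond ATAC-seq were therefore not assigned. Replicate 1 held 78104 peaks and replicate 2 held 74733, and the depth of each library is unknown. Promoters of all 9 T-cell marker genes checked, among them Cd3e, Lck and Il7r, held a region in both libraries, and 0 of 6 markers of B cells, myeloid cells, liver and muscle did. Cd4 and Cd8b1 were both among the 9, so this check does not tell CD4 from CD8 T cells.

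A lncRNA gene is transcribed by RNA polymerase II like a protein-coding gene, but its transcript has no long protein-coding frame. Some lncRNAs act as RNA, some are carriers from whose introns or exons small RNAs are cut, and for others the act of transcription or the DNA element at their start is what affects a neighbouring gene. In T cells the best known carriers are those of miR-155 and miR-142. An open start shows that the DNA is accessible there and does not measure the transcript.

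The sequences of 7 regions are shown because they carry 3 kinds of match described further on. They are CpG-rich regions of widely used lncRNAs with an ETS match, regions with an AP-1 match, and a region with a CTCF match. Each is the plus strand of the GRCm38 reference, 100 bp around the strongest summit, and the capitals mark the match named in the next sentences. ETS matches are in capitals in Norad (chr2:156392915-156393014), Snhg6 (chr1:9944090-9944189) and Snhg20 (chr11:117076693-117076792). AP-1 matches are in capitals in Pvt1 (chr15:62222891-62222990), Gm14005 (chr2:128428287-128428386) and Gm33524 (chr14:70057122-70057221). A CTCF match is in capitals in Bach2os (chr4:32572224-32572323). The summits of Gm14005 and Bach2os lay 556 and 566 bp from a start, and those of the others 14 to 338 bp.
Norad: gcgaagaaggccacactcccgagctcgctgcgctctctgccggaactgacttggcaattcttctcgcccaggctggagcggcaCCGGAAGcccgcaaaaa
Snhg6: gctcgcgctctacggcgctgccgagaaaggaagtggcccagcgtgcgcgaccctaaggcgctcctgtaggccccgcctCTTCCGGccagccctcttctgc
Snhg20: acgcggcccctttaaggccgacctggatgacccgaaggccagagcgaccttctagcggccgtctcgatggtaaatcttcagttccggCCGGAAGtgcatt
Pvt1: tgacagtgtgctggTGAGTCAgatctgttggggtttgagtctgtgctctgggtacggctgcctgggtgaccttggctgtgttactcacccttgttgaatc
Gm14005: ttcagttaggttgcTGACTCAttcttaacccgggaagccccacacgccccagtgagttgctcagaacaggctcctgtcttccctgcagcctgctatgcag
Gm33524: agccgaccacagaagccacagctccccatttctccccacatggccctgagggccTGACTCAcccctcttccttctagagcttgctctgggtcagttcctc
Bach2os: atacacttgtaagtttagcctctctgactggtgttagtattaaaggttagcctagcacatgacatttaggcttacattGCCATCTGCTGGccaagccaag

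At the level of genes, a promoter region was counted for a much smaller share of lncRNA genes than of protein-coding genes. Of 8875 lncRNA genes on these chromosomes, 7535 had at least 1 start over 1000 bp from every protein-coding start and could therefore be counted. Of those, 1318 had a promoter region in both libraries, a background share of 17.5% (exact 95% interval 16.6 to 18.4). Of 20722 protein-coding genes, 13314 had one, a share of 64.3% (63.6 to 64.9). The 2 shares were not counted alike. A region at a lncRNA start did not count if its strongest summit lay near a protein-coding start. For protein-coding genes all shared regions counted. There were 52065 starts for the 20722 protein-coding genes and 10777 countable starts for the 7535 lncRNA genes, so protein-coding genes had more chances. The remaining 1203 of 2568 shared regions near a lncRNA start (46.8%) were also within 1000 bp of a protein-coding start and were left out by the rule, so divergent lncRNAs that share a start with a coding gene are not described. The windows around all lncRNA starts, less the bases within 1000 bp of a protein-coding start, covered 0.706% of the chromosomes. They held 2.09% of the shared regions, a 2.96-fold excess over area, against 8.32-fold for the windows around protein-coding starts.

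The share of genes with an open start differed by the kind of gene. Processed transcript genes had one in 166 of 541 cases (30.7%, 26.8 to 34.8), against 357 of 2106 antisense genes (17%, 15.4 to 18.6) and 795 of 4888 lincRNA genes (16.3%, 15.2 to 17.3). The share was 8.40% (7.28 to 9.63) for the 2226 genes over 100 kb from any protein-coding start, and between 15.5% and 23.9% in the bins closer than that. Where the nearest protein-coding gene itself had an open promoter, 19.1% of lncRNA genes had a region (18.1 to 20.2), and where it had none, 13.2% (11.8 to 14.8). At 1 to 5 kb these shares were 20.4% and 20.9%, and at 5 to 20 kb they were 26.1% and 15.9%, at 20 to 100 kb 22.2% and 15.4%, and at over 100 kb 9.45% and 5.79%. By the number of exons the shares were close, with 16.2% for single-exon genes (12.5 to 20.5) and 19% for genes of 5 or more exons (16.8 to 21.4). Genes with more annotated starts have more chances to be counted, and their share ran from 14.2% with 1 start to 48.1% with 6 or more.

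**Figure D1:**
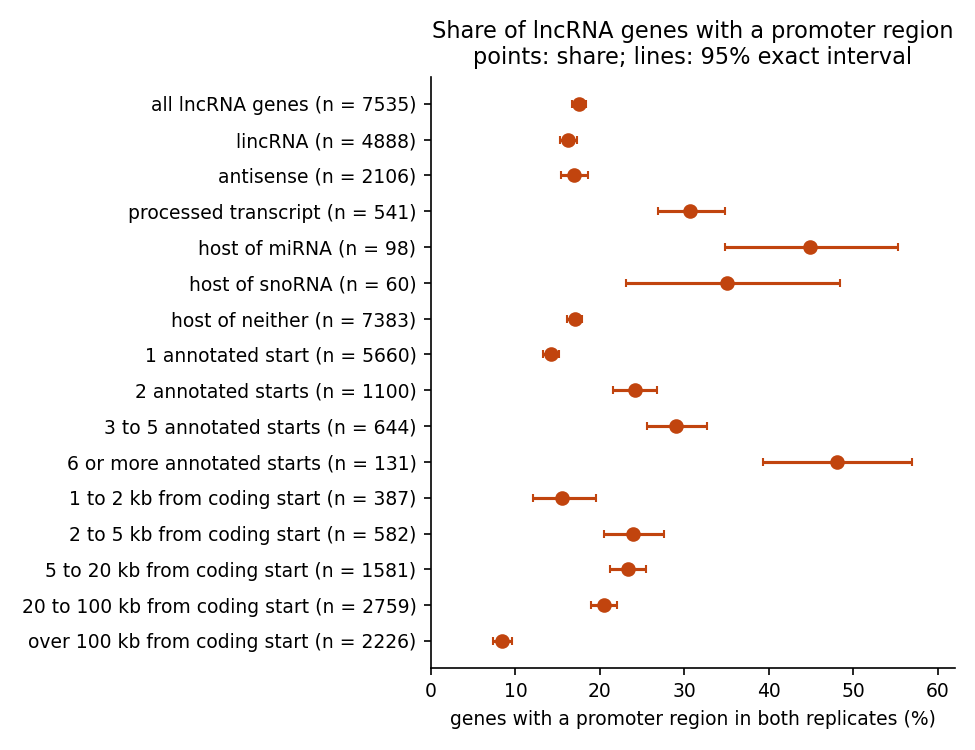
Share of lncRNA genes with a promoter region in both replicates, in percent, for all countable genes and by gene type, small RNA hosted, number of annotated starts and distance to the nearest protein-coding start. Points are shares and lines are exact 95% intervals that cover counting error only. Hosts of miRNAs reach 44.9% and genes over 100 kb from a protein-coding start 8.40%.

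Carriers of small RNAs had an open start more often than other lncRNA genes, as counts with no test. An annotated miRNA lay inside 98 countable lncRNA genes on the same strand, and 44 of them had a promoter region (44.9%, 34.8 to 55.3). A small nucleolar RNA (snoRNA), which guides chemical modification of ribosomal RNA, lay inside 60, and 21 of them had one (35.0%, 23.1 to 48.4). Of the 7383 genes that hosted neither, 17% (16.1 to 17.9) had one. Host genes also had more annotated starts, with a mean of 3.87 for miRNA hosts and 3.46 for the remaining snoRNA hosts against 1.46 for other genes. Among genes with 3 to 5 starts, 63.3% of 30 hosts (43.9 to 80.1) and 27.4% of 614 other genes (23.9 to 31.1) had a region. Among genes with 1 start the shares were 21.7% of 69 hosts (12.7 to 33.3) and 14.1% of 5591 other genes (13.2 to 15.03). With 2 starts they were 54.2% of 24 hosts (32.8 to 74.4) and 23.4% of 1076 other genes (20.9 to 26.1). With 6 or more starts they were 55.2% of 29 hosts (35.7 to 73.6) and 46.1% of 102 other genes (36.2 to 56.2). The intervals thus overlap at both ends of this range, but not between them.

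A selection of 13 mature miRNAs carried by open hosts is shown with the seed, bases 2 to 8, in capitals. The let-7, miR-15 and miR-16, miR-29 and miR-181 sequences are shown because they fall into families that share a seed, and miR-155 and miR-142 because lymphocytes are known for them. Other open hosts carry further miRNAs, such as miR-9, miR-22, miR-30d and miR-31. Some of these miRNAs are also made from other loci. Mature sequences are from RefSeq, GRCm38.p6.
let-7a-5p: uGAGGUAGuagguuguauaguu
let-7b-5p: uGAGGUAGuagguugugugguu
let-7c-5p: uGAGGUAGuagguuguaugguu
let-7d-5p: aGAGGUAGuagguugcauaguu
let-7f-5p: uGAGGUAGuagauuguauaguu
miR-15a-5p: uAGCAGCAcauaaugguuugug
miR-16-5p: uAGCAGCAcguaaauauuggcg
miR-29b-3p: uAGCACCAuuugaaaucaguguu
miR-29c-3p: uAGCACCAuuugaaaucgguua
miR-181a-5p: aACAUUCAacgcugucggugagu
miR-181b-5p: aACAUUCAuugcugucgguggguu
miR-155-5p: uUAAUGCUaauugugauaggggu
miR-142a-3p: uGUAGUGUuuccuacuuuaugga

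The 5 let-7 sequences share the seed GAGGUAG, and the strongest regions of their hosts lay at 4 different places. Hosts outside the named lists were picked after their values were seen. The signal of a peak was read as fold enrichment over local background. The host of let-7a-1, let-7d and let-7f-1, 6720427I07Rik, had a signal of 14.2 in replicate 1 and 13 in replicate 2. The host of let-7b and let-7c-2, Lncppara, had 8.87 and 7.57. The let-7a-2 host 3110039I08Rik, which shares its region with Gm49317, had 8.77 and 9.12, and Mir99ahg, the host of let-7c-1, had 3.14 and 2.76.

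Gm4258, which carries miR-181a-1 and miR-181b-1, known for setting the sensitivity of T-cell receptor signalling in thymocytes, had 14.1 in replicate 1 and 11.4 in replicate 2. A330023F24Rik, which carries miR-29b-2 and miR-29c, had 8.75 and 9.35. Dleu2, the host of miR-15a and miR-16-1, which restrain the cell cycle, had 11.3 and 12.0, with its summit 8 bp from an annotated start. These 3 hosts were all above the median member in both libraries. Mir155hg, the carrier of miR-155, which lymphocytes induce on activation, had 2 regions, and the stronger one had 5.94 and 5.47 with its summit 262 bp from a start and a RUNX match. Mir142hg, the carrier of the blood-cell miRNA miR-142, held the weakest of all 1365 regions at 1.63 and 1.38, and the summit was 728 bp from the annotated start. No region was counted for Mir17hg, the carrier of the miR-17 cluster, but the nearest shared summit was 2061 bp from its only annotated start, with signals of 7.87 and 7.40.

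The 7 lists of lncRNA genes were read against the 17.5% of all countable genes. Of 83 different listed genes that could be counted, 46 had a region, and the lists differed widely. Genes with a symbol other than a Gm, Rik or clone name had a region in 26.9% of 435 cases, against 16.9% of 7100 genes with such a name, and most listed genes have their own symbol, so these counts are a description of the genes listed. Of 136 different listed genes, with aliases of 1 gene counted once, 112 were matched, and the matched ones left out of the 83 were genes whose starts all lie near a protein-coding start, genes of another type, or genes on X or Y.

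Of 12 countable miRNA hosts, 9 had a region. The strongest was at Mir670hg, with 16.8 and 16 in replicates 1 and 2, rank 38 of 1365. Mir22hg, the host of miR-22, had 8.09 and 8.37, and Mir9-3hg, a host of the neural miR-9, had 6.29 and 7.20 with its summit 918 bp from a start. Mir124a-1hg, a host of the neural miR-124, differed between libraries, with 3.75 and 5.67.

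Of 11 countable snoRNA hosts, 8 had a region, and these were Dancr, Snhg5, Snhg6, Snhg8, Snhg12, Snhg15, Snhg17 and Snhg20. Their signals ran from 5.59 and 6.03 for Snhg15 to 13.4 and 12.6 for Dancr in replicates 1 and 2. Summits were 11 to 236 bp from a start, and 7 of the 8 were CpG-rich. Gas5 and Snhg1 had open chromatin at 158 and 287 bp from a start, but those regions had their strongest summit within 1000 bp of a protein-coding start and so were not members.

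Of 12 countable abundant or nuclear lncRNAs, 9 had a region. Norad, a cytoplasmic decoy for Pumilio proteins annotated here as 2900097C17Rik, had 17.5 and 17, rank 19 of 1365, with its summit 14 bp from a start. Pvt1, the neighbour of Myc, had 4 regions, of which the strongest had 10.9 and 11.3 and carried the AP-1 match printed above. It lay 338 bp from an annotated start of Pvt1 and 235519 bp from the nearest protein-coding start, which is that of Myc. The Pvt1 region nearest to Myc, 50600 bp from it and 16 bp from a start of Pvt1, had 5.82 and 5.61. Lncpint, a p53-responsive lncRNA, also had 4 regions, the strongest at 9.42 and 10.1. Trp53cor1, known as lincRNA-p21 and transcribed next to Cdkn1a, had 7.50 and 6.92. Crnde (11.1 and 9.85), Epb41l4aos (9.79 and 9.47) and Dubr (9.50 and 8.49) had CpG-rich regions with summits 13 to 91 bp from a start.

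Malat1 and Neat1, the lncRNAs of nuclear speckles and paraspeckles, had weaker regions than the strongest ones of these genes. Malat1 had 5.19 and 5.36 over 2434 bp, with the summit 975 bp from a start and so just inside the limit. Neat1 had 3.74 and 3.79 with the summit 170 bp from a start. Both regions were CpG-rich, and both signals were below the median member in each library.

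Of 9 countable imprinted lncRNAs, 4 had a region. Kcnq1ot1, the antisense transcript that silences its cluster on the paternal chromosome, had 13.8 and 13.2. Airn, the antisense transcript of Igf2r, had 8.85 and 6.95. Meg3 had 8.11 and 8.70 in a region of 312 bp with its summit 745 bp from a start, so the region did not reach that start. Nespas, antisense at Gnas, had 7.73 and 7.39. H19, Rian, Mirg, Nctc1 and Snhg14 had none, although a distal region with 9.72 and 10.2 lay 2224 bp from a start of H19.

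Of 16 countable lncRNAs linked to immune cells, 9 had a region, and most were of middling or low signal. The strongest were 5830416I19Rik, with 8.65 and 7.92 and an AP-1 match, and A430093F15Rik, with 3 regions, of which the strongest lay 8869 bp from Cd5 and had 7.52 and 7.92. Gm14005, known as Morrbid and as a regulator of its neighbour Bcl2l11 in myeloid cells, had 6.37 and 6.69 over 1930 bp with an AP-1 match. Ptgs2os2, known as lincRNA-Cox2 in mouse macrophages, had 5.46 and 6.79. Bach2os, antisense in the Bach2 locus, had 5.10 and 4.69 with the CTCF match printed above. AW112010, an interferon-responsive gene, had 4.24 and 3.80. Mirt1 (6.06 and 6.51, summit 629 bp from a start), Dnm3os (5.14 and 5.05) and Gm19585 (3.70 and 3.82) completed the list. Ifngas1, the lncRNA beside Ifng that Th1 cells express, had none, and the nearest shared summit was 5311 bp away.

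The lists of genes known from development had the smallest shares of genes with a region. Of 9 countable Hox cluster lncRNAs, 3 had a region. These were Hoxd3os1 at 12.1 and 11.8, Hottip at 2.80 and 2.18, and Hoxa11os at 2.32 and 2.33. The summits of Hottip and Hoxa11os lay 817 and 981 bp from a start. Of 16 countable developmental and neural lncRNAs, 4 had one, namely Nkx2-2os, Pantr1, Six3os1 and Hand2os1. All 4 ranked below 1000 of 1365, and Six3os1 differed most between libraries, with 4.74 in replicate 1 and 2.58 in replicate 2. The summits of Pantr1 and Hand2os1 lay 787 and 513 bp from a start. No test was made between lists.

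**Figure D2:**
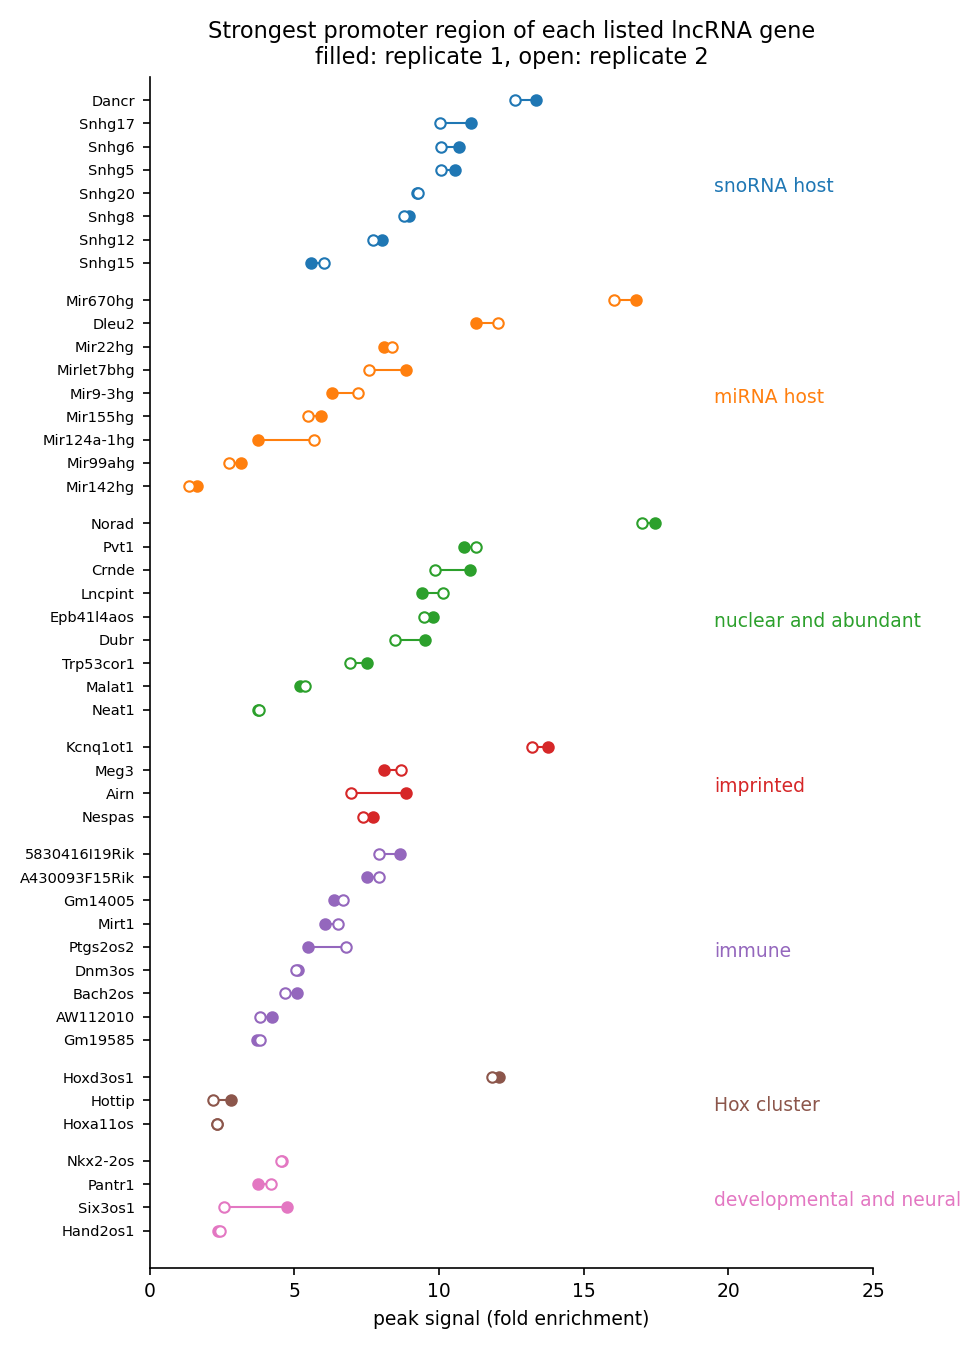
Signal, as fold enrichment, of the strongest promoter region of each listed lncRNA gene, with replicate 1 as a filled and replicate 2 as an open circle, grouped by list. Norad and Mir670hg lie near 17, while the 4 developmental and neural genes lie below 5.

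Peak signal at lncRNA promoters was lower than at protein-coding promoters and close to that of distal regions. The median was 7.23 in replicate 1 and 6.84 in replicate 2 at lncRNA promoters (quartiles 4.63 to 10.9 and 4.59 to 10.4). It was 10.8 and 10.3 at the 13587 protein-coding promoters and 6.68 and 6.40 at the 50366 distal regions, which lie over 1000 bp from starts of both kinds. The order was the same in both libraries, and the difference from protein-coding promoters was far larger than that between the libraries. When all shared regions were ranked by signal into 10 equal groups, each group held between 9.01% and 11.7% of the lncRNA promoters, whereas the share of protein-coding promoters ran from 4.55% in the weakest group to 23.04% in the strongest. Width followed the same order, with a median of 850 bp at lncRNA promoters, 1276 bp at protein-coding promoters and 687 bp at distal regions. No test between these classes was made, since regions of 1 library are not replicates.

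**Figure D3:**
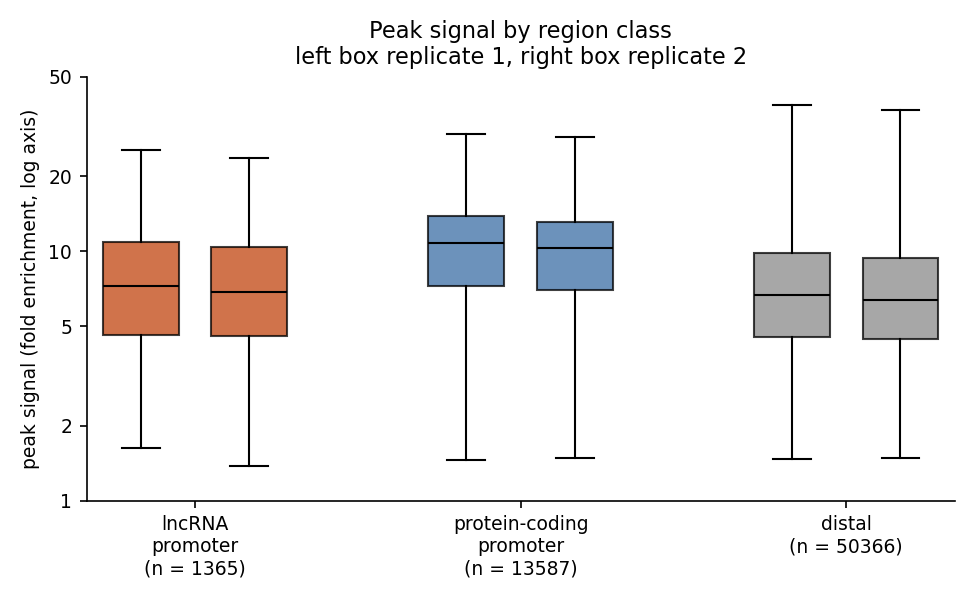
Peak signal on a log axis for 1365 lncRNA promoters, 13587 protein-coding promoters and 50366 distal regions in replicate 1 (left box) and replicate 2 (right box). Boxes span the quartiles with the median as a line, and whiskers reach the lowest and highest region. The lncRNA promoters lie close to the distal regions in both replicates.

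Within the members, signal varied with the class and setting of the gene. Median signals were 7.87 and 7.32 for 184 processed transcript regions, 7.66 and 7.27 for 801 lincRNA regions and 6.45 and 6.00 for 380 antisense regions. Regions between protein-coding genes were 997 (73.0%) and had a median of 7.42 as the mean of both libraries. The 335 that lay inside a protein-coding gene on the other strand had 6.24. The median member was 26.6 kb from a protein-coding start, 200 were within 5 kb, and 438 were over 50 kb away. Chromosome 17 held the most members per megabase, 0.916, and chromosome 14 the fewest, 0.368. Members were 3.10% of the shared regions on chromosome 17 and 1.82% on chromosome 14, against 2.09% on all chromosomes. By that share chromosome 15 was lowest, with 1.65%.

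The region with the highest signal, at Gm42418, had 25.4 and 23.5. It spans chr17:39846136-39847913 and overlaps an annotated ribosomal RNA gene, CT010467.1, and the lincRNAs Gm26917 and AY036118. Because ribosomal RNA sequence occurs in many copies, reads counted here may come from other copies, and the value is uncertain. The next were Gm49708 (23.4 and 20.3), Gm44206 (19.7 and 19.6), Gm13274 (19.7 and 19) and AC132253.9 (21.5 and 17). Of the 200 bp at the summit, 69% in Gm49708 and 72.5% in AC132253.9 was soft-masked as repeat, against a median of 0 over all members, so copies elsewhere could also contribute there. Gm5444 had 19.6 and 18 in a narrow region of 471 bp with an AP-1 and an NFY match and a summit 24 bp from its start. At the other end were Mir142hg, 5930403N24Rik (1.75 and 1.76), Gm19951 (1.79 and 2.08) and 2610037D02Rik (2.02 and 1.93), and AC123818.1 inside the T-cell factor gene Nfatc1 on the other strand (1.82 and 1.78). These 5 regions were low in both libraries. The widest region, 3898 bp at Gm41361 inside Pdgfb on the other strand, had 3.84 and 4.51, both below the median member.

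Summits clustered at lncRNA starts, but less tightly than at protein-coding starts. The median distance was 240 bp, against 76 bp, and 44.8% of summits were within 200 bp, against 75.6%. Distances are to the nearest annotated start. Protein-coding genes have more annotated starts each, which shortens that distance and lowers a count per start, and this was not allowed for. Summits were upstream of the start in 790 regions, downstream in 574 and exactly at it in 1. Within 100 bp of a start there were 18.9 summits per 1000 lncRNA starts in each 100 bp, against 76.5 per 1000 protein-coding starts. Between 500 and 1000 bp there were 3.49, nearly the 3.38 found between 1000 and 2000 bp, where a region is no longer a member. The 377 members with summits at 500 bp or more (27.6%) are thus about as dense as the surroundings of these starts. An accessible element that only happens to lie near a start cannot be told apart from the start itself. This limit also holds nearer to a start. The span from 1000 to 2000 bp, as wide as that of the members, held 728 summits, against 1365 members. The 17.5% of countable genes with a region has the same limit. Just inside the limit were 9430060I03Rik at 1000 bp (4.96 and 4.67), Gm35409 at 999 bp (6.45 and 6.79) and Gm44448 at 999 bp (6.12 and 4.46). Just outside were Vax2os at 1001 bp (4.47 and 4.48), Gm15729 at 1003 bp (7.63 and 7.31) and Gm5544 at 1003 bp (3.16 and 3.54). At the limit to protein-coding starts, Gm46210 at 1017 bp (12.3 and 10.7) was a member and 4732463B04Rik at 998 bp (6.79 and 5.79) was not.

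**Figure D4:**
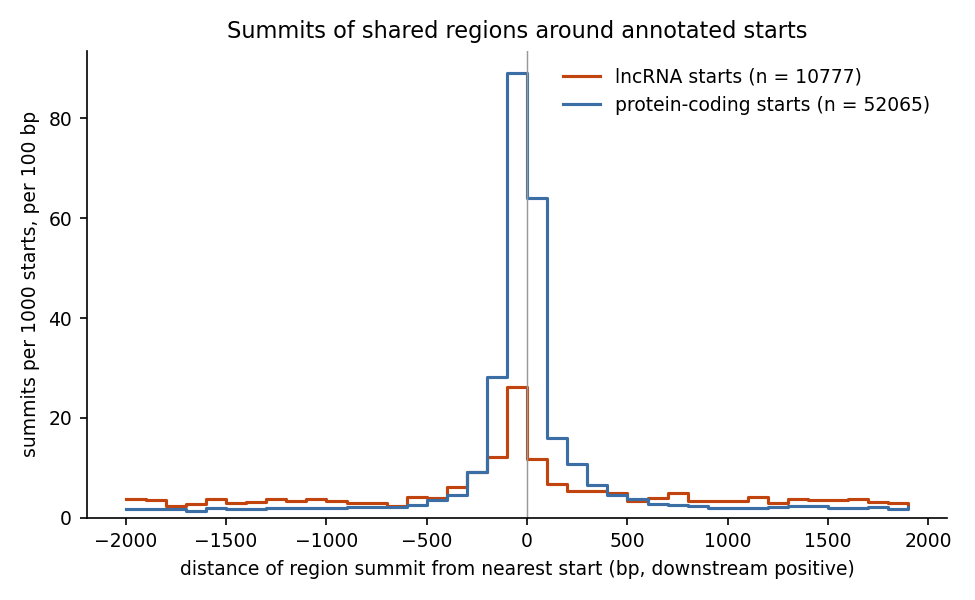
Summits of shared regions per 1000 annotated starts in 100 bp bins, from 2000 bp upstream to 2000 bp downstream, around 10777 lncRNA starts over 1000 bp from protein-coding starts and around 52065 protein-coding starts. The lncRNA curve peaks in the 100 bp upstream of the start at 26.2 summits and the protein-coding curve in the same bin at 89.1.

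Base composition differed among the members. GC content of the 200 bp at the summit had a median of 52.5% at lncRNA promoters, 65.0% at protein-coding promoters and 48.0% at distal regions. CpG-rich summits, with at least 50% GC and an observed over expected CpG of at least 0.6, made up 289 lncRNA promoters (21.2%, 19.03 to 23.4), 73.4% of protein-coding promoters (72.7 to 74.2) and 4.44% of distal regions (4.26 to 4.63). The 289 CpG-rich lncRNA promoters had median signals of 8.97 and 8.49, a width of 1121 bp and summits 119 bp from a start. The other 1076 had 6.72 and 6.58, 780 bp and 288.5 bp. CpG-rich summits were 31.4% of members within 100 bp of a start and 11.4% of those at 500 to 1000 bp. They were 28.8% of processed transcript regions, 20.3% of antisense and 19.9% of lincRNA regions.

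In the 100 bp at the summit, 18 consensus sequences were searched on both strands. AP-1, RUNX and CTCF were among those found at larger shares of lncRNA than of protein-coding promoters. For RUNX and CTCF the share was close to that of all shared regions. AP-1 (TGANTCA), bound by Fos and Jun proteins, was found at 179 lncRNA promoters (13.1%, 11.4 to 15.02), 3.43% of protein-coding promoters, 22.2% of distal regions and 18.1% of all shared regions. In windows 500 bp to each side of the lncRNA summits its share was 2.49%. RUNX (TGTGGTT), the site of the lineage factors Runx1 and Runx3, was found at 71 lncRNA promoters (5.2%, 4.08 to 6.52), 1.60% of protein-coding promoters, 6.24% of distal regions and 5.25% of all shared regions. The CTCF consensus, the site of the insulator protein CTCF, was found at 4.47% (3.44 to 5.70), 0.964%, 5.56% and 4.58% of the same classes, and at 0.110% of the flanks of lncRNA promoters. In these 3 cases the share at lncRNA promoters lay between that of protein-coding promoters and that of distal regions.

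For ETS, the GC box, YY1, NRF1 and NFY the share was smaller at lncRNA than at protein-coding promoters. ETS (CCGGAAG) was found at 32 lncRNA promoters (2.34%, 1.61 to 3.29), 7.60% of protein-coding promoters, 0.969% of distal regions and 2.38% of all shared regions. The GC box of SP and KLF factors (GGGCGG) was found at 13% (11.3 to 14.9), 36.5%, 4.25% and 11.1% of the same classes. YY1 (ATGGCG) was found at 3.44%, 6.90%, 1.75% and 2.86%, NRF1 at 0.586%, 3.34%, 0.141% and 0.816%, and NFY (CCAAT) at 13.2%, 19.4%, 10.4% and 12.35%. In the flanks of lncRNA promoters the shares were 0.879% for ETS, 3.63% for the GC box, 1.36% for YY1, 0.147% for NRF1 and 11.2% for NFY, so that NFY was nearly as frequent there as at the summit. A TATA box (TATAAA) 40 to 20 bp upstream of the nearest annotated start was found at 11 of 1365 lncRNA promoters (0.806%, 0.403 to 1.44) and 0.868% of protein-coding promoters, so the 2 classes did not separate there.

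The remaining sequences are given beside the flanks of the lncRNA promoters. Their shares at lncRNA summits, in the flanks and at all shared regions were 25.7%, 22.1% and 25.2% for E protein (CAGNTG). They were 7.18%, 8.97% and 7.53% for NFAT (GGAAAA) and 7.03%, 7.62% and 7.99% for the lineage factors TCF1 and LEF1 (CTTTGA). For the consensus of Gata3 and its relatives, AGATAA, they were 2.78%, 4.69% and 3.44%. They were 3.15%, 2.86% and 4.31% for STAT (TTCNNNGAA), 2.64%, 2.09% and 1.99% for the E-box (CACGTG), and 2.34%, 1.21% and 2.31% for IRF. They were 0.879%, 0.220% and 0.455% for CRE (TGACGTCA), 2.49%, 6.19% and 2.90% for TATAAA anywhere in the window, and 0.147%, 0% and 0.628% for NF-kB. At protein-coding promoters the shares were smaller, at 17.2% for E protein, 4.84% for NFAT, 3.19% for TCF1 and LEF1 and 1.07% for AGATAA. They were also smaller there for STAT (2.02%), IRF (0.949%) and TATAAA (1.27%), and larger for the E-box (3.11%), CRE (1.21%) and NF-kB (0.243%). Some of the remaining sequences overlap in part, such as IRF with the A-rich NFAT letters, so a base can count for more than 1 of them. None of the 18 was found at 389 members (28.5%).

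**Figure D5:**
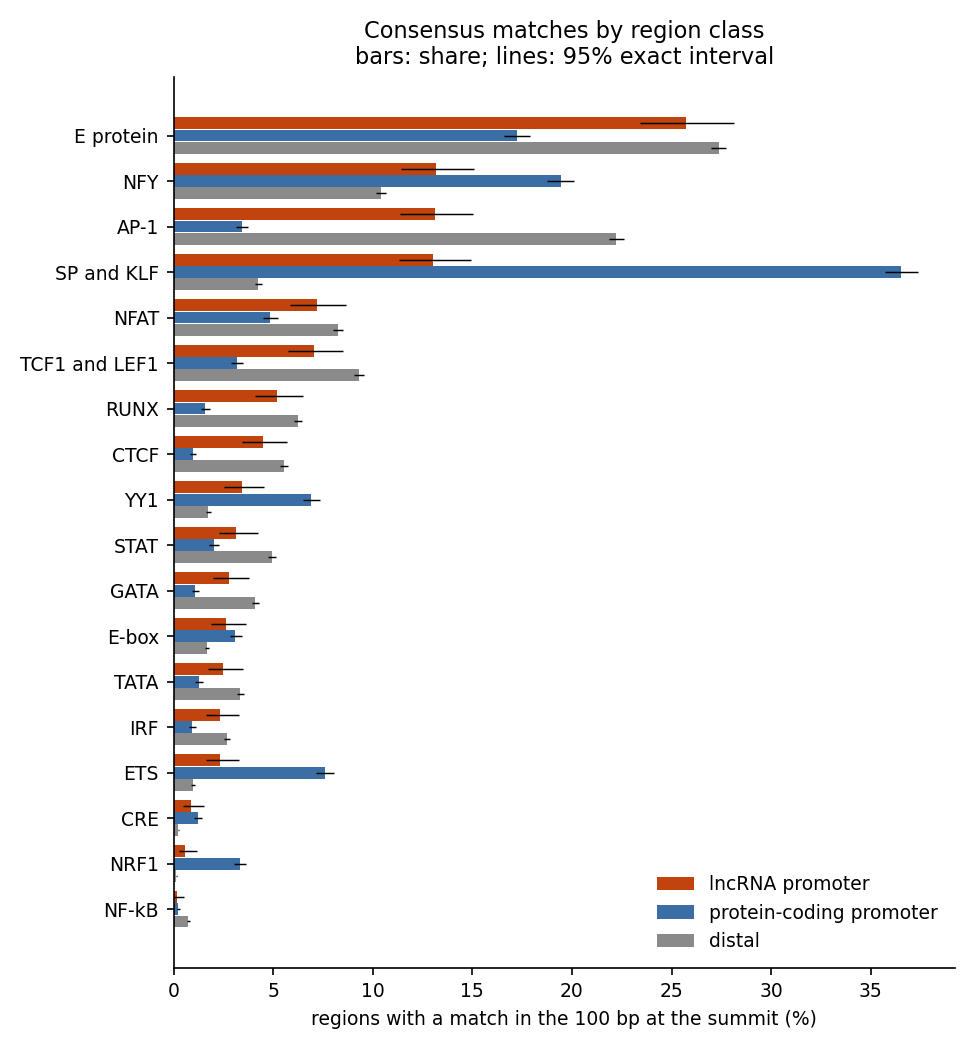
Share of regions, in percent, with a match to each of 18 consensus sequences in the 100 bp at the summit, for lncRNA promoters, protein-coding promoters and distal regions. Bars are shares and lines exact 95% intervals that cover counting error only. AP-1 stands at 13.1% for lncRNA promoters, between 3.43% and 22.2% for the other two.

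The shares of matches differed with base composition and distance. AP-1 was found at 3.81% of CpG-rich and 15.6% of other lncRNA promoters. Among regions that were not CpG-rich, the AP-1 share was 15.6% at lncRNA promoters, 9.58% at protein-coding promoters and 23.1% at distal regions. Among CpG-rich regions it was 3.81% at lncRNA promoters, 1.20% at protein-coding promoters and 3.98% at distal regions, so lncRNA promoters and distal regions hardly differed there. This split has 1 threshold and does not match the classes on composition. In CpG-rich regions the GC box stood at 36.0% of lncRNA promoters, 43.6% of protein-coding promoters and 27.1% of distal regions, but the ETS shares were 3.46%, 9.22% and 2.82%. ETS matches were found at 4.41% of members within 100 bp of a start and 0.796% of those at 500 to 1000 bp. Members with an ETS match had median signals of 9.00 and 8.05 and summits 77.5 bp from a start, and those with an AP-1 match had 7.62 and 7.29 and 308 bp. The Norad, Snhg6 and Snhg20 sequences are of the first kind and Pvt1, Gm14005 and Gm33524 of the second.

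Near genes of T-cell function, lncRNA promoters were about as common as other regions. Of the members, 59 (4.32%, 3.31 to 5.54) were within 100 kb of a start of 1 of 130 matched T-cell genes, and they lay at 37 of these genes. The background was 3.82% of all shared regions, 4.1% of distal regions and 2.75% of protein-coding promoters, so the count is close to the background and is no result about lncRNA promoters. Myb had 5 such members, and Cd5 and Cd69 had 4 each.

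The 10 strongest of them had signals between 8.24 and 12.4, and 9 are described. Gm33533, 17 kb from Zap70, the kinase of the T-cell receptor, had 12.4 and 11.3. Gm49735 near the inhibitory receptor Tigit had 11.3 and 11.8, with its summit 931 bp from a start. Gm48189 and Gm33728, at 61.3 and 91.3 kb from Myb, had 11.2 and 11.5, and 10.5 and 8.82. For Gm49735, Gm48189 and Gm33728 another protein-coding start was nearer, those of Drd3, Ahi1 and Hbs1l, and Gm33533 and Gm33524 lay inside 4933424G06Rik and Pebp4 on the other strand.

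AP-1 matches were found at 3 of the 10, against 13.1% of all members and 18.1% of all shared regions. With 10 regions this count cannot be told apart from those shares and is no result about them. Gm37170, 70.1 kb from Foxo1, had 10.9 and 10.7 with its summit 9 bp from a start. Gm33524, 20031 bp from the activation factor Egr3, had 10.2 and 9.82 over 1739 bp. Gm14009, 64.4 kb from the cell-death gene Bcl2l11, had 9.03 and 9.58, with 77.5% of its summit window soft-masked as repeat. Gm33460, 10.8 kb from the lineage factor Eomes, had 9.55 and 9.86, and Gm16565, 7.98 kb from Cd247, the zeta chain of the T-cell receptor, had 9.92 and 8.24. Gm12534, picked after its values were seen, lay 1.26 kb from Il21, inside that gene on the other strand, with 6.13 and 5.41 and an AP-1 match.

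At lncRNA promoters called in both libraries, the 2 replicates gave similar signals. Of 1628 regions at lncRNA starts in either library, 83.8% (81.97 to 85.6) were shared, while replicate 1 alone held 162 and replicate 2 alone held 101. The share was 94.9% at protein-coding promoters and 75.5% at distal regions. The values that follow cover only regions with a peak in both libraries. The 162 and 101 regions of 1 library alone do not enter them, so these values do not describe the agreement of the full lists. Over the 1339 members with 1 peak in each library, the log2 signals of the libraries correlated (Pearson 0.959, Spearman 0.962) across regions that share both libraries and their depth and are not independent replicates. The median ratio of replicate 1 to replicate 2 was 1.04, and the SD of the log2 ratio was 0.22, against 0.16 at protein-coding promoters and 0.24 at distal regions. Only A430088P11Rik differed over 2-fold, with 6.32 in replicate 1 and 2.99 in replicate 2, and 28 regions differed over 1.5-fold. Gm28180 differed most the other way, with 4.63 and 8.45.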

How the data were processed

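The deposited files were 1 narrowPeak list per library on mm10, called on each library alone, per the deposited notes. Neither aligner nor caller, nor any version or threshold, is named there or in the labels. The authors' score in column 5 was not used. The deposited signal in column 7 was read, from its values, as a ratio (fold enrichment over local background). The authors' −log10 p and −log10 q were taken as deposited, with a smallest −log10 q of 1.02 and 1.01. No scaling between libraries was stated, no transposase shift could be checked, and depth is unknown. A region missing from a list may be below its threshold.

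Starts were those of GENCODE mouse release 21, whose coordinates are those of mm10. Protein-coding starts were those of protein-coding transcripts, and lncRNA genes were of the types lincRNA, antisense and processed transcript. A gene was countable with at least 1 start over 1000 bp from every protein-coding start. Sequence came from the GRCm38 reference (RefSeq). Regions took the strongest summit of either library, and each library's value is its strongest peak in the region. Overlap of 1 base or more merged peaks. Soft-masked bases are those in lower case in that reference. Of 136 listed genes, 112 were matched. Shares carry exact 95% limits (Clopper-Pearson), which account for counting error alone. The members, gene lists and consensus sequences were chosen with earlier results of these data known. Named regions were the listed genes, the 10 strongest, 5 weakest and 5 widest members, the 3 with the most unequal libraries each way, the 10 strongest near T-cell genes and those nearest the 1000 bp limit, and a part of them is described, while 1 region near a T-cell gene is not reported here. Other regions are marked as picked after their values were seen. The code was tested on simulated data. Python 3.11.15, pandas 2.3.3 and SciPy 1.17.1 were used.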

Additional observations from a re-analysis of the deposited data

How the results depend on the processing

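No paired analysis was possible because there was 1 group. The recomputed values are given beside the main ones, and signal and width are means of the 2 library medians. Peaks with a −log10 q of at least 5 gave 16.4% of genes (17.5% in the main setting), a signal of 7.42 (7.03), a width of 801 bp (764.5) and an SD of the log2 ratio of 0.209 (0.220). The 50000 strongest peaks of each library gave 12.25%, 9.18, 901.25 bp and 0.175, a GC content of 53% (52.5) and 30 regions near T-cell genes (59). A limit of 500 bp gave 13.1%, 792 bp, 53% and 37 such regions, and one of 2000 bp gave 2092 regions in all (1365), 24.01%, a signal of 6.56, 729.75 bp, 51.5% and 95. The 5 prime end of each gene alone gave 16.2%, 779.5 bp and 53%. LincRNA genes alone gave 815 regions, 16.3%, a signal of 7.495, 52% and 36, and 25 listed genes (46). A 400 bp window gave a GC content of 51.5%, and a 200 bp window gave AP-1 18.8%, ETS 4.84% and RUNX 8.64%. That window, which holds more bases by construction, also gave E protein 45.3%, NFY 22.1%, SP and KLF 21.2%, NFAT 15.97%, TCF1 and LEF1 14.7%, STAT 7.25%, GATA 6.45%, TATAAA 6.23%, YY1 5.64%, IRF 4.54%, the E-box 4.47%, NRF1 1.39% and NF-kB 0.586%. Leaving out a replicate, so that 1 library chose the regions, gave 1493 to 1542 regions, 18.8% to 19.2% of genes, signals of 6.39 to 6.55, widths of 699 to 722 bp and a GC content of 52% either way. Added after seeing the data, other long noncoding gene types gave 1410 regions. In every setting signal and width stayed below those of protein-coding promoters, with ratios of 0.624 to 0.807 and 0.582 to 0.714. Why values moved was not tested, except that a stricter list or distance holds fewer regions by construction. With unknown depth, a missing region is not shown to be closed, and 1 group of 2 libraries allows no test between conditions.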

Other observations

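Several strong members had a zinc finger gene as the nearest protein-coding gene, such as BC002059 beside Zfp960 and Gm47469 beside Zfp825, a pattern seen after the values were known. The nearest protein-coding gene had a Zfp, Zscan or Zkscan symbol for 38 of the 1365 lncRNA promoters (2.78%, exact 95% interval 1.98 to 3.80), 2.59% of protein-coding promoters and 1.45% of distal regions. Among the 136 strongest lncRNA promoters the share was 9.56% (5.19 to 15.8), among the 1358 strongest protein-coding promoters 4.93% (3.84 to 6.22) and among the 5036 strongest distal regions 1.37% (1.07 to 1.73). No test was made, and neighbouring regions of 1 zinc finger cluster are not independent.

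Some listed lncRNA genes without a promoter region had a distal region between 1000 and 2000 bp from a start, with signals that ranged from low to high. Signals are given for replicate 1 and then replicate 2. The nearest shared summit was 1048 bp from Mir143hg (13.99 and 12.2), 1062 bp from Lncenc1 (4.44 and 3.27), 1179 bp from Miat (9.69 and 8.08), 1195 bp from Dlx6os1 (4.26 and 4.36) and 1285 bp from Bvht (12.5 and 12.7). It was 1541 bp from Hoxb3os (11.0 and 9.12), 1627 bp from Carlr (7.94 and 6.07), 1660 bp from Nron (9.71 and 7.67), 1931 bp from Runx2os2 (4.96 and 6.39) and 1968 bp from Mirg (14.9 and 14.4). Rian had none closer than 60927 bp and Snhg14 none closer than 89822 bp.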
